A study of Caenorhabditis elegans with 2 samples.

Results

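The nuclear pore and nuclear transport genes of the nematode Caenorhabditis elegans were examined for binding of NHR-71, a nuclear hormone receptor. Members were all protein-coding genes of the WBcel235 annotation whose name starts with npp- (nuclear pore complex protein), ima- (importin alpha), imb- (importin beta), xpo- (exportin) or ran- (the Ran GTPase and its partners). This rule took 40 of 19973 protein-coding genes on the nuclear chromosomes, 26 of them npp- genes and 14 of them transport genes. Binding was measured by chromatin immunoprecipitation and sequencing in hermaphrodite L1 larvae, collected 6 h after a synchronization in which bleached embryos hatch and starve. All larvae were of strain OP480, genotype unc-119(tm4063) III with the transgene wgIs480, which adds NHR-71 with a GFP-FLAG tag at its C-terminus, and the immunoprecipitation used an anti-GFP antibody according to the sample descriptions, although the antibody field of the labels reads nhr-71. There was 1 group of 2 biological replicates and no second condition. The larvae were used whole, so binding in a few cells and binding in all cells cannot be told apart. The stated genotype lists no change to the worm's own nhr-71 gene, and no list from untagged worms was used here. The authors deposited ranked peak lists and no read counts, so depth is unknown, and the scale of their signal value is not given in the sources used here. Signals are used only to order and describe the peaks of each list.

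The nuclear pore is a ring-shaped channel through the nuclear envelope. It is built from a Y-shaped scaffold complex and an inner ring, with membrane-spanning proteins that anchor it, a central channel of FG-repeat proteins that selects cargo, fibres on the cytoplasmic side and a basket on the nuclear side. Importins and exportins carry proteins and RNAs through this channel, and the small GTPase Ran, kept in its GTP form inside the nucleus and in its GDP form outside, sets the direction. The worm proteins are named below with the vertebrate counterparts they are known by.

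Most members had an NHR-71 peak in the promoter window, though many of these peaks lay nearer to another gene. A peak counted where its summit, the position of highest signal, lay from 1000 bp before the gene start to 200 bp after it, in the authors' set of 8540 peaks called reproducible across the replicates by the irreproducible discovery rate (the IDR set). Such a summit was found at 29 of 40 members, which is 72.5% (95% exact binomial interval 56.1% to 85.4%, counting of genes only). The share over all protein-coding genes was 20.8%. The members were chosen with earlier results of these data known, so the intervals and the contrasts with all genes are descriptions only. Among npp- genes the count was 17 of 26 (65.4%; interval 44.3% to 82.8%), and among transport genes 12 of 14 (85.7%; interval 57.2% to 98.2%). These counts let a summit count for every gene whose window holds it. With each summit given only to the nearest gene start, they were 15 of 40 members (37.5%), against 16.5% of all genes, with 11 of 26 npp- genes (42.3%) and 4 of 14 transport genes (28.6%), so that the order of the npp- and transport shares was the other way round. The signal of the strongest promoter peak had a median of 376 over the 29 members (lowest 127, quartiles 228 and 683, highest 1452), against 275 over the 4152 genes of the whole annotation with such a peak (quartiles 151 and 548). Of the 29 peaks, 25 (86.2%) lay above the median signal of all IDR peaks, which was 194, against 64.3% over all genes with a promoter peak. A total of 6 (20.7%) were among the 854 strongest IDR peaks, against 16.9%. The ranks ran from 244 of 8540 at imb-3 to 6240 at npp-9. Each member is given below by its signal in the IDR set and then in the lists of replicate 1 and replicate 2, in that order.

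Sequence at the summits is shown first for 7 bound members on chromosomes other than I, and for npp-1, whose case is described further on. The 7 are inner ring, Y complex, importin alpha and Ran cycle genes, and no bound member of another role is shown. They include npp-8 with npp-18 and npp-15 with npp-20, pairs whose shared runs of bases are described below. Each line gives the 100 bp around the summit, 5′ to 3′ on the strand of the gene, read from the RefSeq copy of WBcel235. Capitals mark the short word GCGC, the word TTCAAA or its reverse complement TTTGAA, and any of 7 further words named after the sequences. The line of npp-18 holds none of them.
npp-3, chrII:11874809-11874908, minus strand: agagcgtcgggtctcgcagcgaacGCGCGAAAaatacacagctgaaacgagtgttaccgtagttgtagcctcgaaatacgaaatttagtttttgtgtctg
npp-8, chrIV:1595939-1596038, minus strand: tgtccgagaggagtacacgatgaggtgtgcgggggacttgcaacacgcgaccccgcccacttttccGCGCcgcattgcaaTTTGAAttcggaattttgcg
npp-18, chrIII:13296624-13296723, plus strand: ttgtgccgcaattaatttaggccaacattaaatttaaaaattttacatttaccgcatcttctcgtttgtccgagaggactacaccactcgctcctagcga
npp-20, chrIV:1496106-1496205, minus strand: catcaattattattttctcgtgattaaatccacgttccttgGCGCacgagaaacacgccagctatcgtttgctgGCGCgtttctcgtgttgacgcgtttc
npp-15, chrIII:7928677-7928776, plus strand: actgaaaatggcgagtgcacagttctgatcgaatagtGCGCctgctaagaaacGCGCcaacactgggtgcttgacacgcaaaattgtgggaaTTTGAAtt
ima-1, chrV:11239335-11239434, plus strand: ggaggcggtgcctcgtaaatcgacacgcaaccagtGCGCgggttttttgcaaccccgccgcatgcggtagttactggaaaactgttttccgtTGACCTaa
ran-5, chrII:6047780-6047879, plus strand: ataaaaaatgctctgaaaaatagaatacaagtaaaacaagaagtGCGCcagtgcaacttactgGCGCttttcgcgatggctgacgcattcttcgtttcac
npp-1, chrIV:9858256-9858355, plus strand, centred on the summit of replicate 1: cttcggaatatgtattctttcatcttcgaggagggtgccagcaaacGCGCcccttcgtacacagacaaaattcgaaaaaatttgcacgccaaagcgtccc

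AGGTCA, a recognition word listed for nuclear receptors, was rare in these windows, at a share near that of IDR summits in general. Whether NHR-71 itself binds AGGTCA was not tested, so this share says nothing of the site that NHR-71 prefers. The word was searched on both strands like every word here. It occurred at 1 of 29 member summits (3.45%), that of ima-1, where it stands as TGACCT near the end of the window. It occurred at 3.74% of all 8540 IDR summits, at 3.32% of the 3550 IDR summits in promoters, and in 2.65% of windows of the same length centred 250 bp upstream of all 19973 gene starts. The GATA factor word GATAAG was at 0 of 29 member summits, against 5.94% of promoter IDR summits. The GA repeat GAGAGA was at 2 of 29 (6.90%), those of npp-27 and ran-4, against 23.5% of promoter IDR summits. The E-box CACGTG and the word CTGCGTC were each at 1 of 29, in both cases at imb-3, against 5.32% and 10.3% of promoter IDR summits. The E2F-like words, TTTGGCGC at npp-22 and ima-2 and TTTCGCGC at npp-3, were in 0.648% and 1.46% of promoter IDR summits.

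A shorter word was common. GCGC was within 23 of the 29 member windows (79.3%), against 38.4% of promoter IDR summits, 27.6% of all IDR summits and 11.6% of promoter windows. A pair or more of copies stood in 10 of the 29 (34.5%), against 14.8% of promoter IDR summits. TTCAAA or its reverse complement was in 12 of 29 (41.4%), against 17.3% of promoter IDR summits and 29.6% of promoter windows. Both words were picked after the sequences had been seen, so these shares are descriptions of these 29 windows only, and GCGC lies within both E2F-like words. The G and C content of the windows was near that of other promoter peaks, with a median of 45% at member summits, 44% at promoter IDR summits and 34% in promoter windows. Some members also shared longer runs. The 12 bases tgtccgagagga stand in the lines of both npp-8 and npp-18, and in 25 of the 3550 promoter IDR windows in all. The 12 bases agaaacgcgcca of npp-15 stand on the other strand at npp-20, and in 20 of the 3550 windows in all.

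**Figure D1:**
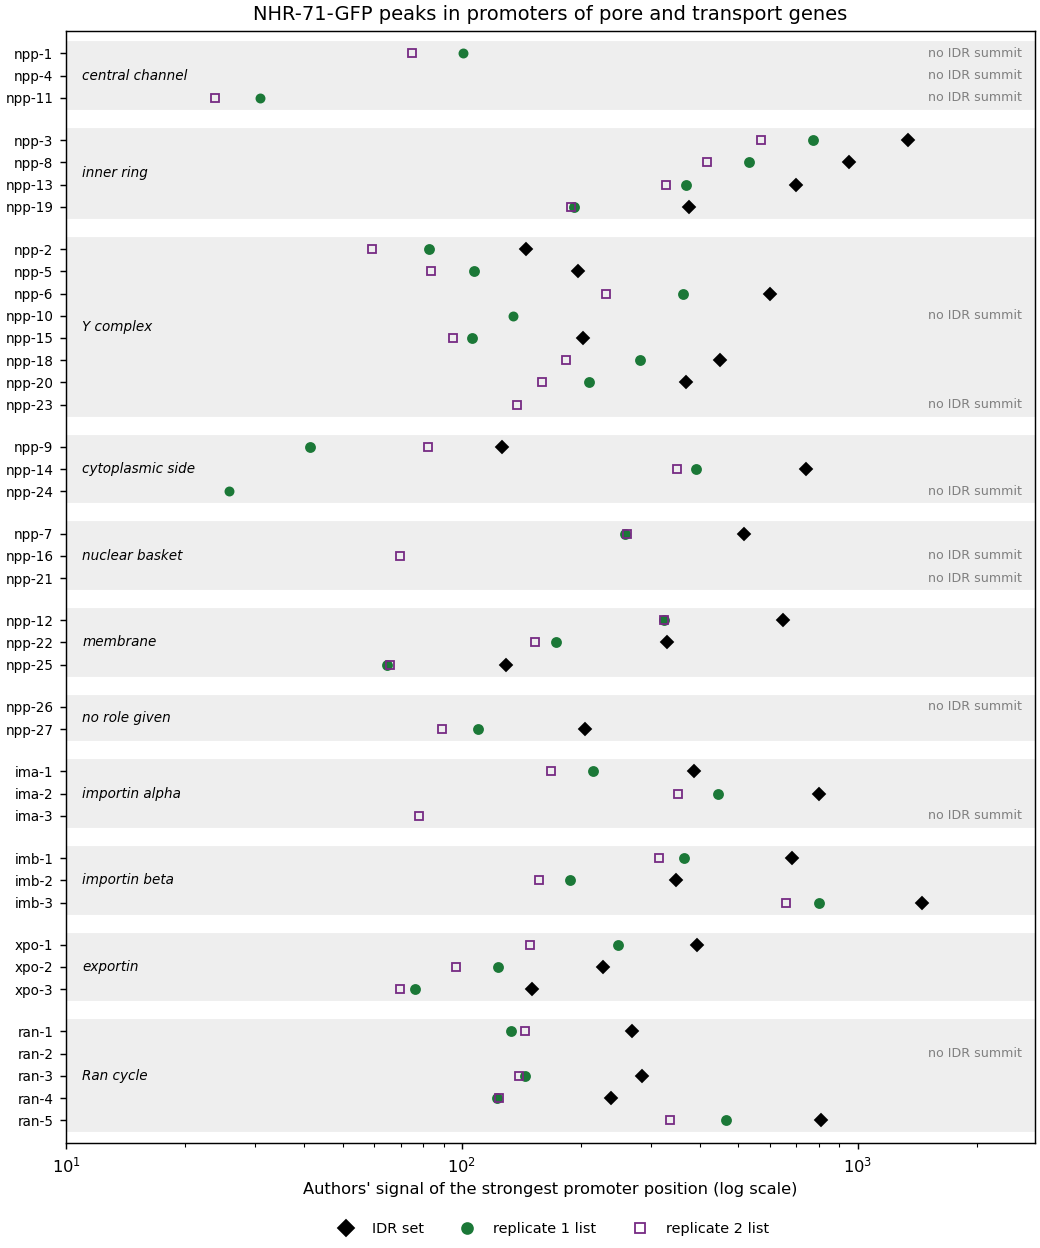
Signal of the strongest promoter position of each of the 40 members (horizontal log axis), by role, in the IDR set, the replicate 1 list and the replicate 2 list; "no IDR summit" marks the 11 members without one, for which any position in a replicate list is still drawn. All 4 inner ring genes and all 3 membrane genes have an IDR summit, the 3 central channel genes have none, and imb-3 is highest at 1452.

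The inner ring had the highest median signal of the pore modules, all of which are small groups. All 4 of its members had a promoter summit, a number too small to set against the 20.8% of all genes. Their median signal was 825. The highest was at npp-3 (Nup205), WBGene00003789 on chromosome II from 11865431 to 11874788, whose peak spans 11874669 to 11875046, with 1339 in the IDR set, and 771 and 571 in the replicate lists. This peak ranked 287 in the IDR set, and 258 and 341 in the replicate lists. Its summit lay 71 bp upstream of the start of npp-3, the shortest distance of all members. The window of top-2, a divergent neighbour, also holds this summit, 289 bp from its own start. At npp-8 (Nup155) the values were 953 in the IDR set, and 533 and 417 in the replicate lists, and the summit lay 165 bp upstream. npp-13 (Nup93) followed with 698 in the IDR set, and 369 and 328 in the replicate lists. npp-19, counterpart of Nup35, had 376 in the IDR set, and 193 and 189 in the replicate lists. No other window held the summits of npp-8, npp-13 and npp-19. The peak of npp-14 on the cytoplasmic side, at 739, was above those of npp-13 and npp-19.

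The central channel had no IDR summit at any of its 3 genes, a number too small to set against the 20.8% of all genes, and npp-1 among them had a summit in both replicate lists. These encode the FG-repeat proteins that line the channel. At npp-4 (Nup58) none of the pooled and replicate lists had a position in the window. At npp-11, counterpart of Nup62, both replicate lists held weak positions, with signals of 30.8 and 27.5 in replicate 1 and 23.8 and 11.3 in replicate 2, and the pooled list ranked its own pair 12467 and 14985, below the IDR set. At npp-1 (Nup54) the positions in the replicate lists were stronger, with signals of 100.5 in replicate 1 (rank 4373) and 74.6 in replicate 2 (rank 5504), and the summits lay 182 bp and 178 bp upstream of the start. Both ranks are within the 8540 strongest positions of their lists. The pooled list holds no position in that window, and the IDR set, which derives from the pooled and replicate lists per the submitters' file list, holds none either.

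The Y complex, the outer scaffold, was bound at 6 of its 8 genes, with a median signal of 285. The highest signal was at npp-6 (Nup160), with 599 in the IDR set, and 362 and 232 in the replicate lists. Its summit lay 400 bp upstream and 225 bp inside the neighbouring gene spd-5. npp-18 (Seh1) had 450 in the IDR set, and 283 and 183 in the replicate lists, and npp-20, counterpart of Sec13, had 368 in the IDR set, and 209 and 160 in the replicate lists. These peaks were in no other gene's window. Weaker peaks lay at 3 further genes. npp-15 (Nup133) had 203 in the IDR set, and 106 and 94.8 in the replicate lists, and npp-5 (Nup107) had 197 there, and 108 and 83.6. npp-2, counterpart of Nup85, had 146 in the IDR set, and 82.6 and 59.3 in the replicate lists, and shared its summit with mei-1, whose start was farther off at 831 bp. The summit of npp-15 was 10 bp from the start of C29E4.13, much nearer than that of npp-15 at 316 bp. The members without an IDR summit were npp-10, which encodes Nup98 and Nup96 in a single gene, and npp-23, counterpart of Nup43. Each had a narrow position in 1 replicate list and none in the other or in the pooled list: npp-10 at 379 bp upstream with a signal of 134.5 in replicate 1 (rank 3246), and npp-23 at 152 bp upstream with 138 in replicate 2 (rank 2978).

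On the cytoplasmic side, npp-14 (Nup214) and npp-9 (Nup358) had a promoter summit and npp-24 (Nup88) had none. The peak of npp-14 stood at 739 in the IDR set, and 391 and 349 in the replicate lists, with its summit 292 bp from npp-14 and 44 bp from cel-1, which encodes the mRNA capping enzyme. That of npp-9 was the weakest of the 29, at 127 in the IDR set, with F59A2.5 sharing its summit at 230 bp and golg-4 at 935 bp, and the replicates differed most there, at 41.3 (rank 9488) in replicate 1 against 82.2 (rank 5022) in replicate 2. At npp-24 the strongest position was at 33.3 in the pooled list (rank 17328) and 25.9 in replicate 1, with none in replicate 2. In the nuclear basket npp-7 (Nup153) was bound, at 518 in the IDR set, and 259 and 261 in the replicate lists, and its summit, 478 bp upstream, was nearer to the start of unc-40 at 283 bp. npp-16 (Nup50) had a position of 69.7 in replicate 2 only, 49 bp upstream (rank 5880). npp-21 (TPR) had no position in any of the lists.

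All 3 genes for membrane-spanning pore proteins had a summit. npp-12 (gp210) had a pair of them, at 626 bp and 421 bp upstream, with signals of 650 and 201 in the IDR set, and the start of T23H2.3 was nearer to both, at 213 bp and 418 bp. The first had 325 in replicate 1 and 324 in replicate 2. npp-22 (NDC1) had 329 in the IDR set, and 173 and 153 in the replicate lists, in no other window. npp-25, counterpart of TMEM33, also had a pair, at 129 and 85.2 in the IDR set, both shared with mrps-10, a mitochondrial ribosomal protein gene. The stronger of them had 64.6 in replicate 1 and 65.7 in replicate 2. The intervals of this pair overlap, and the same replicate 2 position covers both summits. The signal of 85.2 is close to the lowest of the IDR set, 84.1. Of the genes with no role given here, npp-27 had 205 in the IDR set, and 110.0 and 89.0 in the replicate lists, 247 bp upstream and 81 bp from ntl-4, and npp-26 had no position in any list.

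Among import receptors, all 3 genes named imb- had a promoter summit. imb-3, counterpart of importin 5 and listed as WBGene00002077 on chromosome I from 310981 to 314989, had the highest signal of all members, 1452 in the IDR set, and 801 and 658 in the replicate lists. It ranked 244 in the IDR set, and 239 and 248 in the replicate lists, and its summit, 257 bp upstream, was in no other window. imb-1, importin beta itself, had 683 in the IDR set, and 363 and 314 in the replicate lists, but its summit lay between divergent starts, 86 bp from imb-1 and 63 bp from mfsd-13.1. imb-2, the transportin gene, had 348 in the IDR set, and 188 and 157 in the replicate lists, unshared. The importin alpha genes were mixed. ima-2 had 798 in the IDR set, and 445 and 352 in the replicate lists, unshared, at 332 bp upstream. ima-1 had 385 in the IDR set, and 214 and 168 in the replicate lists, with dvc-1 nearer at 54 bp. ima-3 had no IDR summit, and a position of 78.1 in replicate 2 only (258 bp upstream, rank 5274).

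The exportin genes all had summits, each with a nearer start on the other side. xpo-1, which encodes CRM1, the export receptor for proteins with leucine-rich signals, had 393 in the IDR set, and 248 and 149 in the replicate lists, at 441 bp upstream and 415 bp from uvs-1. xpo-2 (CAS), which returns importin alpha to the cytoplasm, had 228 in the IDR set, and 124 and 96.7 in the replicate lists, at 338 bp and 165 bp from nol-14. xpo-3, the tRNA exportin gene, had 150 in the IDR set, and 75.9 and 69.8 in the replicate lists, at 242 bp and 76 bp from C49H3.3. Signals of exportin genes were thus in the lower and middle part of the members' range. xpo-1 also held a weak IDR summit in an intron 4966 bp from its start (signal 91.9), which lies in the window of ZK742.3. The only other summit inside a member was in an intron of npp-27, 536 bp from its start (signal 150.5), in the window of ntl-4.

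Of the Ran cycle genes, 4 of 5 had a summit. ran-1, the Ran GTPase gene, had 270 in the IDR set, and 133 and 144 in the replicate lists, with dkc-1 nearer at 217 bp. ran-3 (RCC1), the exchange factor that loads Ran with GTP, had 285 in the IDR set, and 144 and 139 in the replicate lists, with C26D10.3 nearer at 21 bp. ran-4 (NTF2), which brings Ran back into the nucleus, had 239 in the IDR set, and 123 and 124 in the replicate lists, in no other window. ran-5 was the strongest at 807 in the IDR set, and 465 and 337 in the replicate lists, and its summit lay 37 bp from the start of R12C12.6. ran-2 (RanGAP), which triggers GTP hydrolysis outside the nucleus, had no position in any list. Its start lies 479 bp past the end of npp-15 on the same strand, and the nearest IDR summit, 4808 bp upstream, is the peak of npp-15.

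The rule set the level of the members' share, which was above that of all genes under each of the rules given here. With windows from 500 bp upstream, 29 members had a summit, against 16.6% of all genes, and from 2000 bp upstream 29 as well, against 26.8%. Counting any overlap of the peak interval gave 29, against 22.3%. Among the 4270 IDR peaks of higher signal it was 25 (62.5%), against 13.4%, without npp-2, npp-9, npp-25 and xpo-3. The nearest-start count of 15 had an interval of 22.7% to 54.2%, against 16.5% of all genes. In the replicate lists, each reduced to its 8540 strongest positions, 30 members (75%) had a summit in replicate 1, against 21.2%, and 33 (82.5%) in replicate 2, against 21.1%. Replicate 1 added npp-1 and npp-10 and left out npp-9, and replicate 2 added npp-1, npp-16, npp-23 and ima-3. No member is on chromosome X, which carries 13.7% of protein-coding genes, and the share over all autosomal genes was 20.5%.

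**Figure D2:**
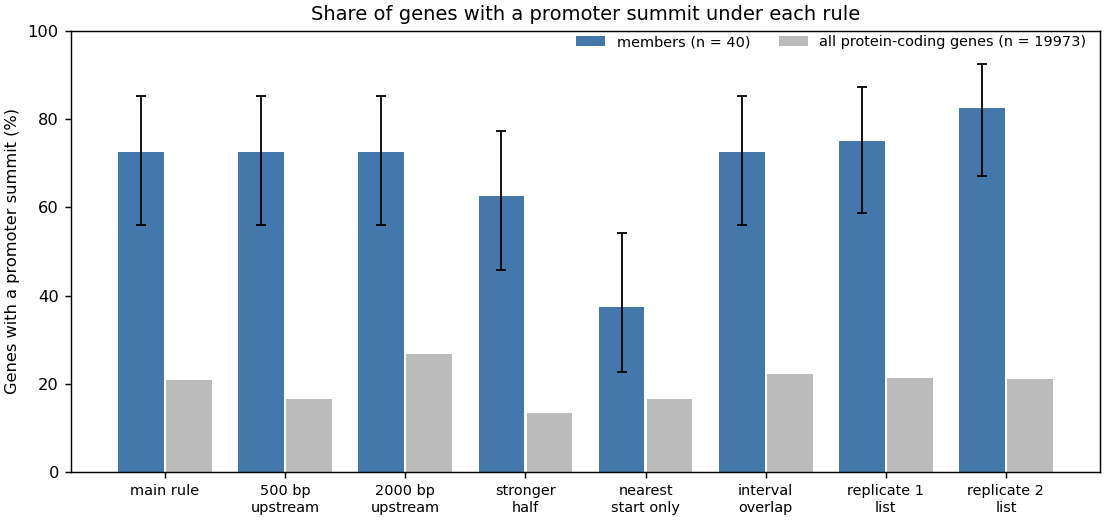
Share of genes (vertical axis, percent) with a promoter summit among the 40 members (left bar of each pair, with the 95% exact binomial interval) and among all 19973 protein-coding genes (right bar), under the main rule and 7 other rules. The members' share is 72.5% under the main rule and lowest, at 37.5%, with the nearest start only.

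The naming rule made no use of gene layout. The neighbour on the upstream side lies on the opposite strand, head to head, for 29 of 40 members (72.5%), against 46.2% of all genes. Of these 29 head-to-head members 25 had a summit (86.2%), against 27.1% of all head-to-head genes. Of the 11 members with a same-strand neighbour 4 had one (36.4%), namely npp-22, ima-2, imb-2 and imb-3, against 15.3% of such genes. A same-strand gene ended within 1000 bp upstream at 7 of the 11 members without a summit (63.6%) and at 3 of the 29 with one (10.3%), while over all genes these shares were 32.9% and 22.2%. Worm genes in such runs can be transcribed together as operons, but operon annotation was not used here. When each of these 7 runs was followed to its first gene, a summit was found in that gene's window for 1 of 7, ran-2 (14.3%), against 27.8% of all genes without a summit in such a run. Counting the own window or that of the first gene gave 30 of 40 members (75%), against 28% of all genes. The difference in layout shares was not tested.

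All 29 strongest summits lay upstream of the gene start, against 93.5% over all genes with a promoter peak. Their distance had a median of 269 bp (quartiles 179 and 338 bp), against 234 bp (quartiles 120 and 457 bp) over all such genes. All but that of npp-12 were within 500 bp, or 96.6%, against 70.9%. A window of another protein-coding gene also held the summit in 17 of 29 cases (58.6%), against 41.4% of all genes with a promoter peak, and 14 summits, that of npp-6 included, lay nearer to another gene's start than to the member's. With each summit given only to the nearest gene start, 15 of the 29 members kept one, against 3287 of the 4152 genes with a promoter summit. These lists cannot tell to which gene of a pair sharing a summit a peak belongs.

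**Figure D3:**
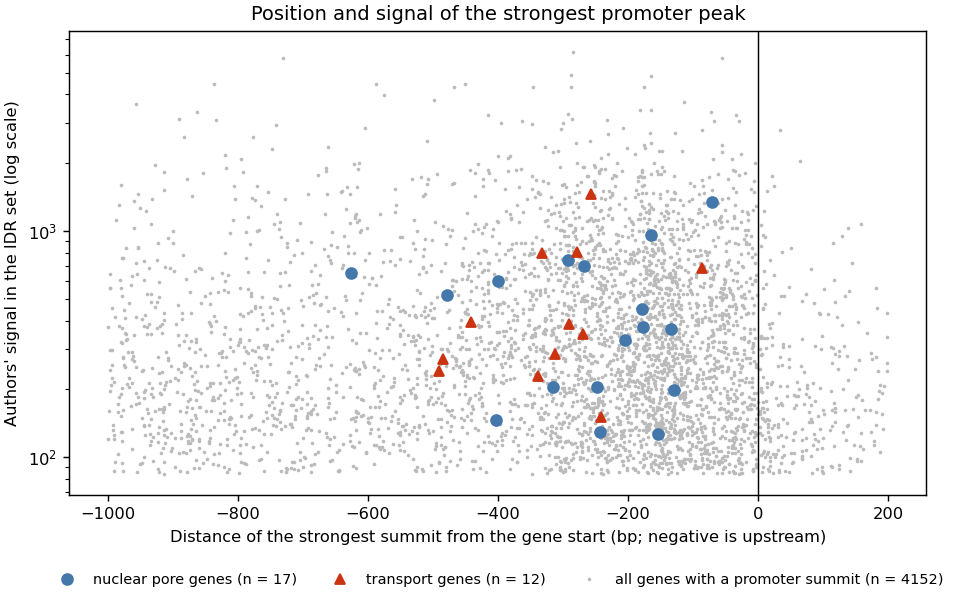
Distance of the strongest promoter summit from the gene start (horizontal axis, bp, negative upstream) against its signal in the IDR set (vertical log axis) for 17 nuclear pore genes, 12 transport genes and all 4152 genes with a promoter summit. Member summits lie from 71 to 626 bp upstream, with signals from 127 to 1452.

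Signals at member peaks were mostly somewhat higher in the list of replicate 1. Over the 29 peaks, the median log2 ratio (replicate 2 over replicate 1) was -0.26 (quartiles -0.36 and -0.05), against -0.16 over all genes with a promoter peak and -0.12 over all IDR peaks covered in both lists. Signal was higher in replicate 1 at 24 of 29 member peaks (82.8%), against 69.9% over genes with a promoter peak. The scale of the lists is not known, so this shift describes the lists and says nothing of the larvae. The extremes were xpo-1 at -0.74, npp-6 at -0.64 and npp-18 at -0.62, and on the other side npp-9 at 0.99. With 2 replicates of 1 group no test was made.

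**Figure D4:**
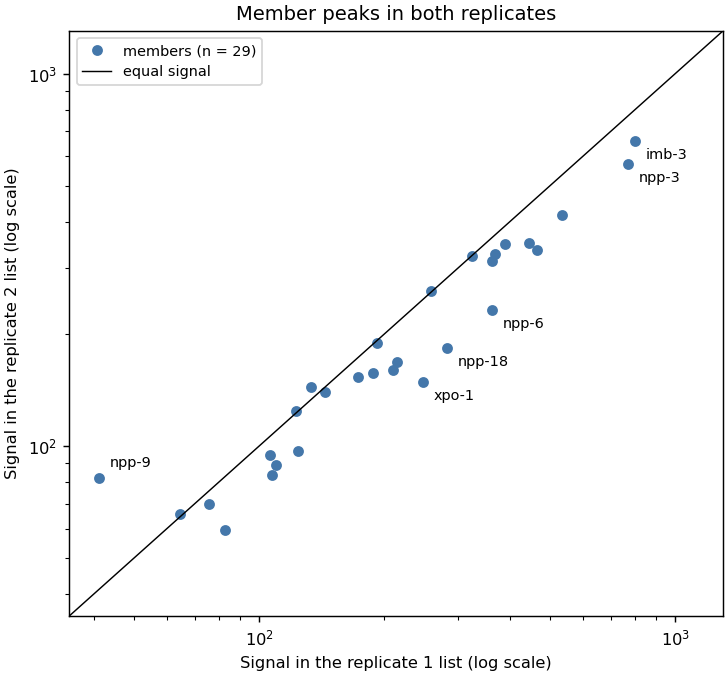
Signal of the strongest promoter peak of the 29 bound members in the replicate 1 list (horizontal log axis) and the replicate 2 list (vertical log axis), with the line of equal signal. Most points lie slightly below the line, and npp-9 lies above it, with 41.3 in replicate 1 and 82.2 in replicate 2.

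Lists of other genes of nuclear structure and transport gave a mixed picture beside the 20.8% of all genes. These lists too were chosen with earlier results of these data known. For mRNA export, 9 of 12 genes had a promoter summit (75%; interval 42.8% to 94.5%). These included thoc-7 of the THO complex (1154 in the IDR set, shared with the ribosomal protein gene rpl-29), with its summit 784 bp upstream. thoc-5 of the same complex (1099, unshared) had its summit 48 bp upstream. Also among the 9 were hel-1, an RNA helicase gene (795, shared with C26D10.4), and nxf-1, the main mRNA export receptor gene (621, shared with C15H11.11). The summits of aly-2, ddx-19, thoc-2 and thoc-3 lay in another gene's window as well, that of thoc-3 at 961 bp upstream. No nearest-start count was made for these lists. nxt-1, whose product pairs with such receptors, had 322, unshared. aly-1, nxf-2 and thoc-1 had none. In the nuclear envelope list 6 of 14 had one (42.9%; interval 17.7% to 71.1%). lem-2, an inner membrane protein gene, had 879, and emr-1, the emerin gene, had 294, both unshared. baf-1, which encodes a chromatin bridge to the envelope, had 388, shared with tag-342. lem-3 had 242, unshared. lem-4 had 94.0, near the lowest signal of the IDR set, 84.1, and had no replicate 2 value. Its summit lay 52 bp after the gene start and was shared with Y55F3BR.11. Of the nuclear positioning genes, unc-84 had 166 in the IDR set, while unc-83, sun-1, zyg-12 and anc-1 had none, and neither had the lamin gene lmn-1 or the pore assembly gene mel-28. In the SUMO pathway, which attaches a small protein to others and in vertebrates modifies RanGAP, 3 of 9 had one (33.3%; interval 7.49% to 70.1%), namely ubc-9 (615), smo-1, the SUMO gene (459), and ulp-4 (320).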

How the data were processed

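NHR-71 binding was mapped in whole L1 larvae, with 2 biological replicates. The authors deposited a list of 30000 positions per replicate, a pooled list and the 8540 IDR peaks, each with a signal value, a -log10 q and a summit offset. Per the submitters' file list, lists were made from alignments and a control. The sources used here give no aligner, peak caller or IDR threshold. All IDR peaks carry 1 deposited -log10 q value, so only signal was used. The ce10 lists were not used.

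Coordinates are 1-based on ce11 (WBcel235). Genes came from Ensembl release 115, sequence from RefSeq. Windows were computed with pandas 2.3.3 and NumPy 2.4.6, intervals with SciPy 1.17.1 and plots with Matplotlib 3.10.9, in Python 3.11.15. A summit offset past the interval was set to its last base. Replicate values are the strongest interval over the IDR summit. Depth is unknown, and intervals cover counting of genes only. Window assignment was tested on simulated data. No set test was made. Members, roles and lists were chosen with earlier results of these data known, and the words GCGC and TTCAAA, the autosomal share and the runs of genes after seeing the data. The search for shared runs of bases was not planned either. All members may be named, as may listed pathway genes with a summit and genes sharing a window; spd-5 and the pathway genes without a summit were chosen after their values were seen.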

Additional observations from a re-analysis of the deposited data

How the results depend on the processing

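The count of members with a promoter summit, 29 of 40, changed by over 1.5 times with 1 of 9 other rules: with each summit given only to the nearest gene start it was 15, with 11 npp- genes in place of 17 and 4 transport genes in place of 12. With either replicate left out it was 30 to 33 (npp- genes 18 to 20, transport genes 12 to 13). Windows of 500 and 2000 bp upstream and interval overlap left it at 29 with the same members, the IDR peaks of higher signal gave 25, and the run rule gave 30. The cause of these differences was not tested. No paired analysis was possible because there was 1 group. With signals of unknown scale and no counts, no precision can be given for a single peak.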

Other observations

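The position at npp-1, present in both replicate lists and in no pooled interval, was not a single case. Of the 8540 strongest positions of replicate 1, 268 (3.14%) had their summit outside every interval of the pooled list, and 103 of them lay inside one of the 8540 strongest intervals of replicate 2. For replicate 2 the counts were 301 (3.52%) and 108. The best rank of such a position was 980 in replicate 1 and 756 in replicate 2. Why the pooled list lacks them was not tested.

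The longest run of bases shared by windows of members on chromosomes II to V joined ima-1 and npp-9. The 15 bases cgtaaatcgacacgc of ima-1 stand on the other strand in the window of npp-9, on chromosome III, and were found in 3 of the 8540 IDR windows in all.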
